A study of Mus musculus with 6 samples.

Results

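Glycolysis and the hypoxia response were followed through 31 genes in resident peritoneal cells: transporters of glucose and lactate, the enzymes that carry glucose to pyruvate and lactate, the kinases of pyruvate dehydrogenase, and 4 genes of the response to low oxygen. The genes were taken by name from a list and not by their values, and all 31 of them, among 55538 listed features, had at least 1 UMI (unique molecular identifier, the tag that counts an RNA molecule once). Cells came from the peritoneum of C57BL/6J mice that were MerTK +/+ or MerTK -/- (MerKD), *Mertk* being a receptor with which macrophages take up dying cells. Adherent cells of pooled mice were given a media change only, or were kept for 2 h or 6 h with apoptotic cells (ACs), which were UV-treated Jurkat cells, a human T cell line carrying a GFP reporter. Each genotype and condition gave 1 library, 6 in all.

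Glycolysis splits glucose into pyruvate in the cytosol and yields ATP without oxygen. Lactate dehydrogenase turns pyruvate into lactate and so restores the NAD+ that the pathway needs. The transcription factor subunit HIF-1α, encoded by *Hif1a*, is marked for degradation by prolyl hydroxylases when oxygen is present, and when it is stable it switches on many glycolytic genes together with *Vegfa*. Macrophages are known to lean on this pathway during inflammatory activation and after the uptake of ACs.

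Values are a gene's summed UMIs scaled to a total of 1000000 UMIs over the same cells (CPM), with exact Poisson 95% intervals, and ratios carry exact conditional 95% intervals. Both intervals cover counting error only. The kit tags the 5′ end of each RNA, so a long and a short RNA each count once and CPM of different genes were set side by side without dividing by length. The library number at the end of a barcode is not tied to a genotype or time by the labels, so the table counts as 1 sample: no genotypes or times were compared, the level of *Mertk* could not be set against the labels, and no p-value was computed. Libraries held 1005 to 1612 barcodes and 4234786 to 10287079 UMIs, and 28 barcode sequences occurred in more than 1 library.

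Cells were gated on genes outside the list. Macrophages (2773 cells, 36.2% of those kept, median 4426 UMIs) carried *Csf1r*, *Adgre1* and *Fcer1g*. B cells (2948 cells, 38.5%, median 5416 UMIs) carried *Cd79a* and *Cd79b*. T/NK cells (514 cells, 6.71%, median 2814 UMIs) carried *Cd3d*, *Cd3e* or *Nkg7*. GEO's labels call every sample peritoneal macrophages, whereas B cells were the larger gate. Within macrophages, Gata6+ cells (584) had 4032 CPM of 7 other markers of large peritoneal macrophages, against 1169 in Irf4+ cells (233), and Irf4+ cells had 8589 CPM of 7 other markers of small peritoneal macrophages, against 1117 in Gata6+ cells. Macrophages with at least 2 *Tnf* UMIs (260, called Tnf-high) and B cells with at least 2 UMIs of *Egr3* and *Egr4* (308, called Egr-high) were set against the rest of their gate.

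Hypoxia-inducible factors bind DNA at a core of ACGTG or GCGTG, so the bases before the start sites were searched for these letters. The sequences below are the 250 bases upstream of the start (RefSeq, GRCm38.p6, 5′ to 3′ on the strand of the gene), with ACGTG on either strand in capitals, and they are shown because these 5 genes were higher in macrophages than in both lymphocyte gates and held at least 2 matches. *Ldha* is added as the gene with the most matches and with nearly equal levels in macrophages and B cells. The windows lie at chr6:82774455-82774704 on the minus strand for *Hk2*, chrX:106186850-106187099 on the plus strand for *Pgk1*, chr11:120948817-120949066 on the plus strand for *Slc16a3*, chr2:11502091-11502340 on the minus strand for *Pfkfb3*, chr12:73907617-73907866 on the plus strand for *Hif1a* and chr7:46845554-46845803 on the plus strand for *Ldha*.
Hk2: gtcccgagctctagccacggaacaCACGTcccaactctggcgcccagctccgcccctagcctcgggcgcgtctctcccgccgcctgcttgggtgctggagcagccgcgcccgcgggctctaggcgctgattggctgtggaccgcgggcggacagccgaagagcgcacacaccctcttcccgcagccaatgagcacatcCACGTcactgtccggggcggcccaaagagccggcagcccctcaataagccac
Pgk1: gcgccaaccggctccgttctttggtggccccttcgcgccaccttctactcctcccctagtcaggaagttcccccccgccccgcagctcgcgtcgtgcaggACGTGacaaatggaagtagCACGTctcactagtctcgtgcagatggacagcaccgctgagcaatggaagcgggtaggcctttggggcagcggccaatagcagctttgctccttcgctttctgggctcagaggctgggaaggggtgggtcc
Slc16a3: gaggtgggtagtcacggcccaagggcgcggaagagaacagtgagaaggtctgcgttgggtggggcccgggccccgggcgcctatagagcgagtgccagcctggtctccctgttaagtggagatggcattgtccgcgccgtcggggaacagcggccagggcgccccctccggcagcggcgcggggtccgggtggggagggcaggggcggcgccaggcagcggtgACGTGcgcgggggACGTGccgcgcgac
Pfkfb3: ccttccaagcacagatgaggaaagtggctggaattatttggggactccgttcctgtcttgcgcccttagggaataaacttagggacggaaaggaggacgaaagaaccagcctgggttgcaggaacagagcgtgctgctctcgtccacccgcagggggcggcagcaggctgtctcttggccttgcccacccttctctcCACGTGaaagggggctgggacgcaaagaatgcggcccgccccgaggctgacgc
Hif1a: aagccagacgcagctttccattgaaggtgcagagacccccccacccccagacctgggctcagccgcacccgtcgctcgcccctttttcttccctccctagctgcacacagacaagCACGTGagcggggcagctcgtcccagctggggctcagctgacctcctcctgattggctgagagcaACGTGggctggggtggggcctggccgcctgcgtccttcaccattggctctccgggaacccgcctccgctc
Ldha: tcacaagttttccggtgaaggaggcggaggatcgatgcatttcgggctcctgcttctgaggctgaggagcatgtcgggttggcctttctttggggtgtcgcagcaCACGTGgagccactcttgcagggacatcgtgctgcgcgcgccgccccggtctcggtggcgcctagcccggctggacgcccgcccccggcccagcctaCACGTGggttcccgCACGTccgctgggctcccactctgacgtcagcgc

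*Ldha* held 5 matches and *Hif1a* 3, where the palindrome CACGTG counts on both strands, and *Hk2*, *Pgk1*, *Slc16a3* and *Pfkfb3* held 2 each. The 2 of *Pfkfb3* are 1 palindrome. Another window of *Ldha* held 0 and another of *Pfkfb3* held 1. *Vegfa*, *Hk3*, *Pfkl*, *Slc2a1*, *Slc2a6*, *Pgam1*, *Eno1* and *Pkm*, also higher than in both lymphocyte gates, held 0 or 1 per window. *Slc16a1* and *Bnip3*, not called higher against both gates, held 2, so the sequences shown are a selection. RefSeq start sites were matched for 30 of the 31 genes, in 44 windows of 250 bases before the start. ACGTG on either strand was found in 43.2% of these windows and in 16.6% of all 32851 windows of that length. GCGTG was found in 52.3% of them against 28.2%, and CACGTG, which contains ACGTG, in 13.6% against 6.02%. The windows of the members also held more CG pairs, with a median of 13.5 against 6, and each of these motifs contains CG. The part of CG content in the difference was not tested, and a match is a string of letters, not a bound site.

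In macrophages, *Gapdh*, the enzyme that oxidises glyceraldehyde-3-phosphate, was the highest of the 31 genes at 763 CPM (748–778). *Pkm*, which makes pyruvate, followed at 704 CPM (690–718), then *Hif1a* at 508 CPM (496–520) and *Aldoa*, the aldolase, at 440 CPM (429–452). *Ldha* at 387 CPM (376–397), the enolase gene *Eno1* at 371 CPM (361–382) and *Vegfa*, an endothelial growth factor, at 357 CPM (347–367) came next, and the intervals of *Ldha* and *Eno1* overlapped, as did those of *Eno1* and *Vegfa*. So a transcription factor subunit and a secreted growth factor stood among the 7 most abundant members in these macrophages. In B cells the order began with *Gapdh* at 779 CPM, *Ldha* at 396, *Aldoa* at 306, *Pkm* at 266 and *Gpi1*, the phosphoglucose isomerase, at 169. *Vegfa* was at 19.6 CPM there. In T/NK cells the order was *Gapdh* at 708 CPM, *Ldha* at 358, *Gpi1* at 251, *Pkm* at 232 and *Aldoa* at 221.

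**Figure D1:**
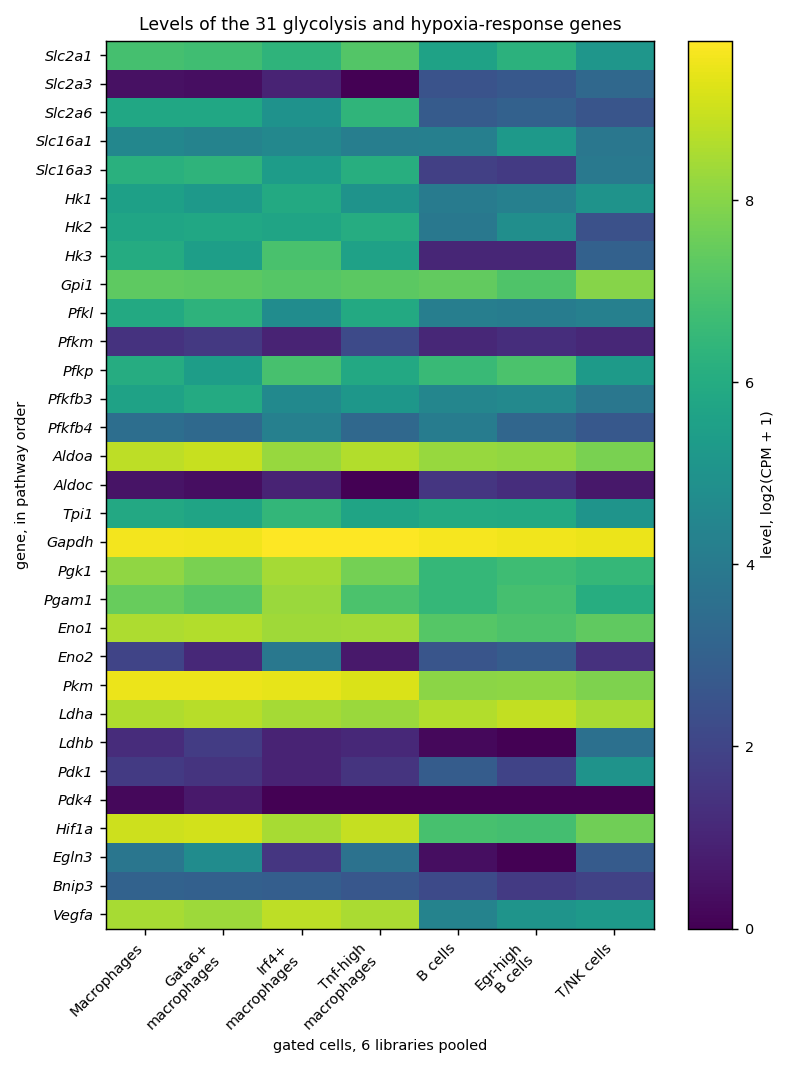
Level of each of the 31 genes, as log2(CPM + 1) by colour, in 7 gates of pooled cells (columns), with genes in pathway order (rows). Gapdh is bright in every column, whereas Vegfa, Hk3 and Slc16a3 are bright in the 4 macrophage columns and dark in B cells, with Vegfa at 357 CPM in macrophages and 19.6 in B cells.

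The 31 genes together took 4839 CPM (4802–4876) in macrophages, 2716 CPM (2692–2740) in B cells and 2604 CPM (2531–2679) in T/NK cells. By library the sums were 4385 to 5543 CPM in macrophages, 2284 to 2935 in B cells and 2001 to 3057 in T/NK cells, so the macrophage range lay above both lymphocyte ranges. As a ratio, the gap by role was widest for the hypoxia-response genes and the hexokinases. The hypoxia-response genes had 886 CPM in macrophages, 142 in B cells and 245 in T/NK cells, and the hexokinases 159, 30.4 and 42.9. As a difference in CPM it was widest for the 6 genes from *Gapdh* to *Pkm*, at 2297, 1371 and 1259 CPM. The lactate and pyruvate genes were nearly level, at 390, 403 and 400 CPM.

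Macrophages were first compared with B cells, to ask which members differ between the phagocytes and the main lymphocytes of the cavity. A member was called higher or lower where the ratio of pooled CPM, with 1 CPM added to both, was at least 2-fold and every library had the same direction, among features with a mean of at least 5 CPM over both gates. Of the 31 members, 15 were called higher in macrophages, 0 lower, 9 were tested and not called, and 7 fell below the floor of 5 CPM. Over all features the same call was made for 18.1% as higher and 20.9% as lower. The median log2 ratio over all 31 members was 1.00, against -0.14 over all features tested. Over the 24 members tested it was 1.31. Medians of the members cover all 31, with those below the floor, unless said otherwise. Ratios of this kind depend on what else the cells make: mitochondrial, ribosomal protein and immunoglobulin genes took 15.8% of UMIs in macrophages and 40.7% in B cells. With those genes left out of the totals the median of the features tested moved to -0.69 and that of the 31 members to 0.50. The members' median thus stood 1.15 above that of the features on the first scale and 1.19 on the second. These sets are unlike: the members' median includes genes below the floor, and the features tested numbered 9394 and 10295. On the second scale 10 members were called higher and 4 lower (*Pfkp*, *Pfkfb4*, *Eno2* and *Pdk1*), and 24.9% of all calls were in the higher direction, against 46.3% on the first scale.

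Among the transporters, *Slc16a3*, the monocarboxylate carrier that exports lactate, had the widest gap. Its level by library was 60.0 to 110 CPM in macrophages, with a median of 69.2, and 0.653 to 5.50 CPM in B cells, with a median of 2.37. The ranges did not overlap, and the pooled ratio was 27.7-fold (20.8–37.9). *Slc2a6*, a glucose transporter of lysosomal membranes, lay between 31.5 and 68.4 CPM in macrophages and between 3.13 and 9.69 in B cells, a ratio of 9.20-fold (7.53–11.3). *Slc2a1*, the main basal glucose transporter, was at 102 to 134 CPM in macrophages and 30.0 to 84.5 in B cells, again without overlap, and its ratio of 2.41-fold (2.22–2.62) was not called on the second scale, at 0.75 as a log2 ratio. The other lactate carrier, *Slc16a1*, was not called at 1.25-fold (1.07–1.47) and was higher in macrophages in 4 of 6 libraries. *Slc2a3*, a high-affinity glucose transporter, had 5 UMIs in macrophages (0.363 CPM) and 85 in B cells (4.60 CPM), below the floor.

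The hexokinases phosphorylate glucose and hold it in the cell, and all 3 were called higher in macrophages. *Hk3* was at 45.8 to 114 CPM in macrophages, with a median of 64.7, and at 0 to 2.78 CPM in B cells, with 20 UMIs in the B cell gate. The ratio was 57.9-fold (37.3–95.3), the highest of the called members. *Hk2*, the inducible hexokinase, was at 41.7 to 63.3 CPM in macrophages and 9.71 to 37.6 in B cells, a ratio of 3.73-fold (3.23–4.32). *Hk1*, the form found in most tissues, had 45 CPM against 15.5, a ratio of 2.90-fold (2.52–3.35).

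The middle of the pathway divided. *Pfkl*, one of the phosphofructokinases that commit sugar to glycolysis, was called higher at 59.1 against 16.8 CPM, 3.51-fold (3.08–4.02). *Pfkp*, another of them, was lower in macrophages in 6 of 6 libraries, at 65.0 against 97.2 CPM, and at 0.67-fold (0.616–0.725) did not reach the 2-fold limit. *Pfkfb3*, which makes the activator of phosphofructokinase, was called higher at 2.26-fold (1.99–2.56), but not on the second scale (log2 ratio 0.65) or with libraries weighted equally. *Gpi1*, the aldolase *Aldoa* and *Tpi1*, the triosephosphate isomerase, were at 0.94-fold (0.894–0.998), 1.44-fold (1.39–1.49) and 0.94-fold (0.860–1.03) and were not called.

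In the lower pathway *Pgk1*, which makes the first ATP, was at 174 to 446 CPM in macrophages and 72.4 to 139 in B cells, a ratio of 3.06-fold (2.89–3.25). *Pkm* was at 625 to 852 against 199 to 435 CPM, a ratio of 2.65-fold (2.56–2.74), and *Eno1* at 330 to 443 against 134 to 162, a ratio of 2.60-fold (2.48–2.73). None of these ranges overlapped. *Pgam1*, the phosphoglycerate mutase, sat at the limit with 2.02-fold (1.89–2.15): without library 4, 5 or 6 its log2 ratio was 0.93, 0.92 or 0.93 and the call ended. On the second scale the log2 ratios of *Pgam1*, *Eno1* and *Pkm* were 0.50, 0.87 and 0.90, under the limit. *Gapdh* at 0.98-fold (0.955–1.00) and *Ldha* at 0.97-fold (0.941–1.01) were nearly level between the gates, each higher in macrophages in some libraries and lower in others.

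All 4 hypoxia-response genes were higher in macrophages in 6 of 6 libraries, and 3 were called. *Vegfa* was at 262 to 680 CPM in macrophages, with a median of 344, and at 14.4 to 36.0 in B cells, a ratio of 18.2-fold (16.4–20.4). It was seen in 61.0% of macrophages and 7.6% of B cells, or in 36.0% and 1.92% after every cell was thinned to 1500 UMIs. *Hif1a* was at 438 to 563 CPM against 88.8 to 141, a ratio of 4.28-fold (4.08–4.49). *Egln3*, a prolyl hydroxylase that acts on HIF-1α and is itself a HIF target, had 184 UMIs in macrophages (13.4 CPM) and 5 in B cells (0.270 CPM), a ratio of 49.4-fold (20.8–154). *Bnip3*, which takes part in the removal of mitochondria, had 7.40 against 3.57 CPM and was not called once 1 CPM was added. Some macrophage transcripts were found in the B cell gate: 7 macrophage markers outside the gates summed to 543 CPM there, 251 to 748 by library, against 19389 in macrophages. One by one these markers stood at 1.62% (*Lyz2*) to 42.7% (*Ctss*) of their macrophage levels, with 5 of the 7 under 4%. *Hk3* stood at 1.73%, *Egln3* at 2.02%, *Slc16a3* at 3.61%, *Vegfa* at 5.48% and *Hk2* at 26.8%. With B cells that carried a *Csf1r* or *Adgre1* UMI left out, the log2 ratios were 4.54 for *Vegfa*, 5.76 for *Hk3* and 5.05 for *Slc16a3*, and 15 members were called higher. The part of these transcripts in the B cell levels was not tested.

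**Figure D2:**
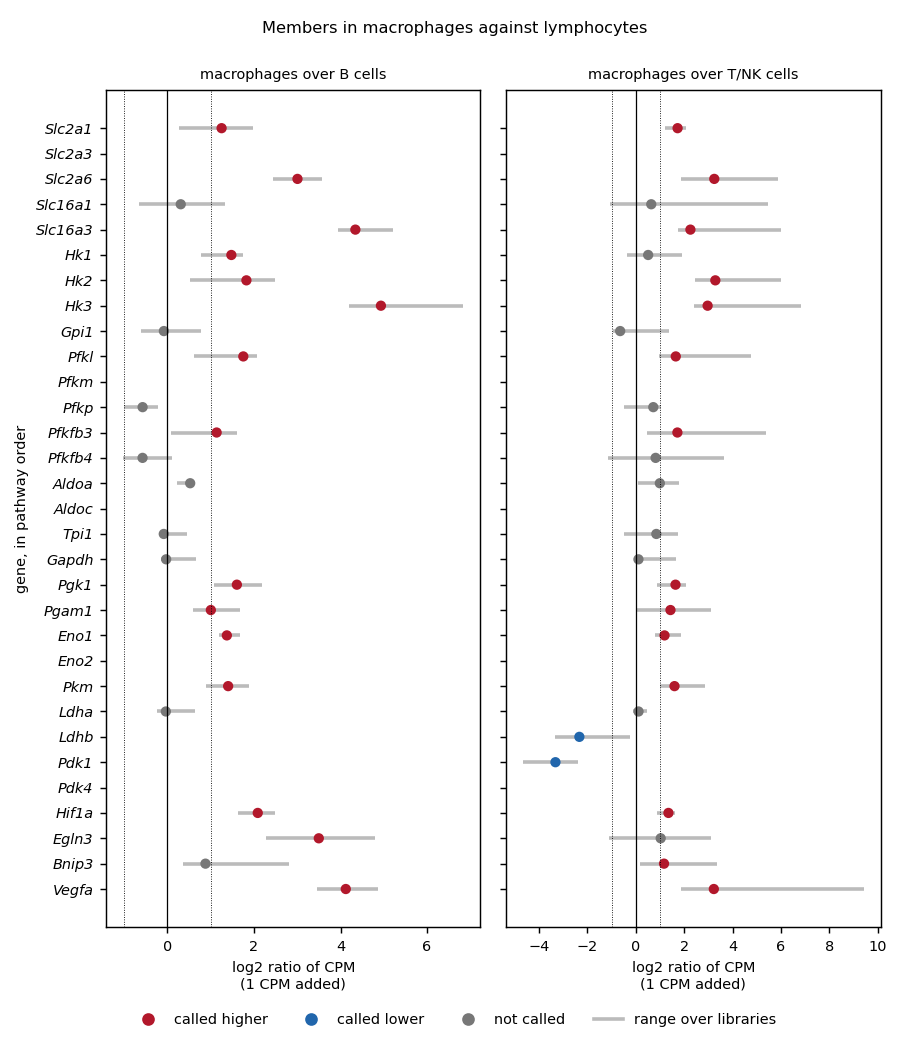
Log2 ratio of pooled CPM (1 CPM added) for each tested member in macrophages over B cells (left) and over T/NK cells (right), with dots for the pool, grey bars for the range over the 6 libraries, colours for the call and dotted lines at 2-fold. Hk3, Slc16a3 and Vegfa lie farthest to the right against B cells, at 4.93, 4.34 and 4.12, and only Ldhb and Pdk1 are called lower, against T/NK cells at -2.33 and -3.32.

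Against T/NK cells, 14 members were called higher in macrophages (background 17.0% of features), 2 lower (background 13.9%), 10 were tested and not called and 5 were below the floor. The median was 0.99 over all 31 members and 1.17 over the 26 tested, against -0.14 over all features tested. The T/NK gate held 1818592 UMIs, against 18489733 for B cells, so its intervals are wider. It also carried more macrophage RNA: the 7 markers summed to 2610 CPM, with 5392, 1512, 2528, 131, 371 and 178 CPM in libraries 1 to 6, with *Cd5l* at 12.4% and *Ctss* at 25% of their macrophage levels.

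The members called higher were *Slc2a1*, *Slc2a6*, *Slc16a3*, *Hk2*, *Hk3*, *Pfkl*, *Pfkfb3*, *Pgk1*, *Pgam1*, *Eno1*, *Pkm*, *Hif1a*, *Bnip3* and *Vegfa*. This comparison uses the same macrophage values as the one with B cells. *Vegfa* was at 37.4 CPM in T/NK cells, a ratio of 9.56-fold (7.52–12.3), with 70.3, 11.2 and 47.6 CPM in libraries 1 to 3 and no UMI in libraries 4 to 6. Libraries 4 to 6 had the least macrophage RNA in this gate and also the fewest T/NK cells. They held 52, 40 and 18, against 106, 117 and 181 in libraries 1 to 3. With T/NK cells that carried a *Csf1r* or *Adgre1* UMI left out, the log2 ratio of *Vegfa* was 5.56 in place of 3.22. *Hk2* at 11.7-fold (5.92–27.3), *Slc2a6* at 11.2-fold (5.85–24.5) and *Hk3* at 8.76-fold (5.10–16.5) had similar sizes, on 8, 9 and 13 T/NK UMIs. *Slc16a3* at 14.3 CPM and *Hk3* at 7.15 CPM in T/NK cells were 19.9% and 11.4% of their macrophage levels, within the range of the 7 markers. The part of macrophage RNA in these T/NK levels was not tested.

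*Pkm* at 3.03-fold (2.75–3.35), *Pgk1* at 3.14-fold (2.68–3.70), *Pfkl* at 3.26-fold (2.30–4.76) and *Slc2a1* at 3.37-fold (2.62–4.42) were higher on both scales. On the scale without mitochondrial, ribosomal protein and immunoglobulin genes, which took 39.7% of T/NK UMIs, *Pfkfb3*, *Pgam1*, *Eno1*, *Hif1a* and *Bnip3* were not called, 9 members were called higher and 3 lower, and 35.7% of all calls were in the higher direction in place of 55.1%. The median of all features was then -0.66 and that of the members 0.51, a distance of 1.17 in place of 1.13. *Bnip3* rested on 5 T/NK UMIs and without library 3 was not called, at a log2 ratio of 1.64, since its mean level then lay under the floor of 5 CPM.

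The reverse pattern was seen for 2 genes at the exit of the pathway. *Pdk1*, a kinase that shuts off pyruvate dehydrogenase, was at 18.8 to 88.8 CPM in T/NK cells, with a median of 35.5, against 0 to 5.56 in macrophages and 2.24 to 9.14 in B cells. T/NK cells thus held 14.1 times the macrophage level and 5.04 times the B cell level. *Ldhb*, the lactate dehydrogenase subunit that favours the path from lactate to pyruvate, had 20 UMIs in T/NK cells (11 CPM), 19 in macrophages (1.38 CPM) and 3 in B cells (0.162 CPM), and without library 3 it lay under the floor in both comparisons, at log2 ratios of -1.92 against macrophages and -3.08 against B cells. *Pdk1* was seen in 10.7% of T/NK cells (median 2814 UMIs), 3.77% of B cells and 1.08% of macrophages, or in 5.82%, 0.962% and 0.483% after thinning. The related kinase gene *Pdk4* had 2 UMIs in macrophages and 0 in the lymphocytes, where 3 counts would be 0.162 CPM in B cells.

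Between the lymphocyte gates, *Hk2* at 3.15-fold (1.57–7.37) and *Pfkp* at 2.49-fold (1.96–3.20) were called higher in B cells and *Ldhb* and *Pdk1* lower, with 20 tested members not called and 7 below the floor. The background was 6.57% higher and 5.60% lower. The medians were 0.14 for all 31 members, 0.14 for the 24 tested and -0.05 for all features tested. With stricter gates neither *Hk2* nor *Pfkp* was called, and without library 5 *Pfkfb4* and *Tpi1* were called higher as well. *Hif1a* was lower in B cells in 6 of 6 libraries, at 119 against 199 CPM, and its 0.60-fold (0.534–0.669) stayed short of the limit. The 7 macrophage markers summed to 543 CPM in B cells and 2610 in T/NK cells, and the part of macrophage RNA in this difference was not tested.

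Many of these steps are served by several genes, and the gates differed in which one the UMIs came from. Of the hexokinase UMIs in macrophages 39.3% (37.3–41.4) were *Hk3*, 32.4% *Hk2* and 28.3% *Hk1*, with exact binomial intervals. In B cells 51.0% (46.8–55.2) were *Hk1*, 45.5% *Hk2* and 3.55% *Hk3*. In T/NK cells 73.1% (61.8–82.5) of 78 UMIs were *Hk1*. By library the *Hk3* share was 31.7 to 44.9% in macrophages and 0 to 8.96% in B cells, so it was apart in every library.

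The shares of the phosphofructokinases also differed between macrophages and B cells, and the lactate carriers changed places. *Pfkl* made up 47.0% (44.6–49.4) and *Pfkp* 51.7% of the phosphofructokinase UMIs in macrophages, against 14.6% (13.1–16.2) and 84.4% in B cells, and *Pfkm*, the muscle form, was under 2% in each of these gates. By library the *Pfkl* share was 22.1 to 58.6% in macrophages and 8.08 to 20.3% in B cells. *Slc16a3* made up 76.7% (74.3–78.9) of the UMIs of both lactate carriers in macrophages, with 59.4 to 85.8% by library, and 12.9% (9.67–16.7) in B cells, with 6.25 to 26.6%. *Pfkfb3* made up 82.0% of the PFKFB UMIs in macrophages and 56.7% in B cells. In macrophages, Gata6+ and Irf4+ cells, B cells and T/NK cells alike, *Ldha* made up at least 97.0% of lactate dehydrogenase UMIs, *Aldoa* at least 99.4% of aldolase UMIs and *Eno1* at least 95.9% of enolase UMIs.

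**Figure D3:**
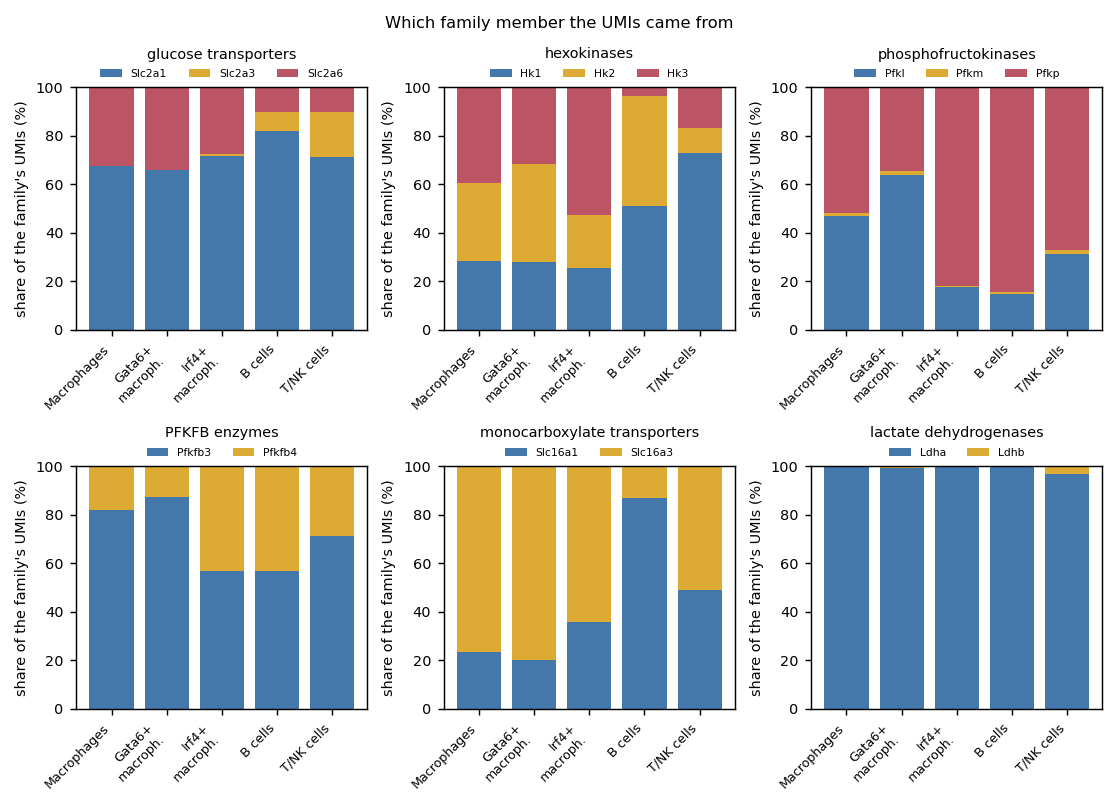
Share of a family's UMIs (%, from 0 to 100) that came from each listed member, in 5 gates of pooled cells and for 6 families. Hk3 makes up 39.3% of hexokinase UMIs in macrophages and 3.55% in B cells, and Slc16a3 makes up 76.7% and 12.9% of those of the lactate carriers.

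Within macrophages, Irf4+ cells were compared with Gata6+ cells. *Hk3*, *Pfkp* and *Pgam1* were called higher in Irf4+ cells (background 5.06%), *Pfkfb3* and *Egln3* lower (background 3.66%), 20 members were tested and not called and 6 were below the floor. The medians were -0.11 for all 31 members, -0.07 for the 25 tested and 0.11 for all features tested. Pooled cells of these gates came from the libraries in unequal numbers: library 6 gave 109 of 233 Irf4+ cells and 51 of 584 Gata6+ cells, so a pooled ratio can fall outside the range of the libraries, as for *Hk1* at 1.58-fold (1.15–2.15) with library log2 ratios of -0.96 to 0.56.

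*Pfkp* was at 76.7 to 162 CPM in Irf4+ cells and 32.8 to 52.2 in Gata6+ cells, with no overlap and a ratio of 2.85-fold (2.22–3.64). *Hk3* was at 69.6 to 177 CPM in Irf4+ cells and 32.8 to 110 in Gata6+ cells. These ranges overlapped, but within each of the 6 libraries Irf4+ cells were higher, and the ratio was 2.84-fold (2.23–3.62). In cells of 3000 to 8000 UMIs *Hk3* was not called. *Pgam1* at 2.15-fold (1.87–2.47) was not called without library 1 (log2 ratio 0.88), with libraries weighted equally or with the median of all features subtracted. On that last scale *Slc16a3* was called lower and the counts were 2 higher and 3 lower.

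*Egln3* had 89 UMIs in Gata6+ cells, with 5.86 to 52.1 CPM by library, and 2 UMIs in Irf4+ cells, both in library 3. Its ratio was 0.0726-fold (0.00866–0.270), on these few UMIs. *Pfkfb3* at 0.38-fold (0.241–0.578) was lower in 6 of 6 libraries, and without library 6 its log2 ratio of -0.996 was just short of the limit, while *Pfkl* and *Slc16a3* were then called lower. With libraries weighted equally *Pfkfb3* was not called either. *Pfkl* was at 25.4 against 77.1 CPM, 0.33-fold (0.213–0.490), but was not called with all libraries because 1 of 6 went the other way. *Hif1a* at 0.66-fold (0.588–0.735), *Aldoa* at 0.63-fold (0.556–0.708) and *Slc16a3* at 0.51-fold (0.361–0.707) were lower in 6 of 6 libraries without reaching 2-fold. Of the phosphofructokinase UMIs 81.8% (74.8–87.6) were *Pfkp* in Irf4+ cells and 34.5% (29.9–39.2) in Gata6+ cells, against 84.4% in B cells. The 6 B cell markers outside the gates summed to 105 CPM in Irf4+ cells, with 25.5 to 249 by library, 4.08 in Gata6+ cells and 3070 in B cells, and their part in the difference was not tested. *Vegfa* had 435 CPM in Irf4+ and 322 in Gata6+ cells, 1.35-fold (1.21–1.5), with 4 of 6 libraries higher.

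Tnf-high macrophages, the cells with transcripts of this inflammatory cytokine, were set against the other macrophages. Of the 31 members 0 were called higher and 0 lower in Tnf-high over other macrophages, against 0.575% and 1.15% of features, with 24 tested and 7 below the floor. So few features were called that the absence of calls is not read as a result about the members. Libraries held 18 to 83 Tnf-high cells. The medians were -0.22 for all 31 members, -0.19 for the 24 tested and -0.19 for all features tested. *Slc2a6* was higher in 6 of 6 libraries at 81.5 against 51.5 CPM, 1.58-fold (1.31–1.90), the nearest to a call among members that moved one way in every library. *Ldha* at 0.79-fold (0.723–0.866), *Pfkfb3* at 0.72-fold (0.539–0.934) and *Eno1* at 0.88-fold (0.807–0.963) were lower in 6 of 6 libraries. *Vegfa* was at 361 against 357 CPM. The gate needs 2 UMIs of a gene and so takes deeper cells, with a median of 6298 UMIs against 4304 in other macrophages. With the median of all features subtracted, 70.9% of the features called were higher in place of 33.3%, and still 0 members were called.

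Egr-high B cells carry transcripts of early response genes that follow signals through the B cell receptor, and their median depth was 8230 UMIs against 5179 in other B cells. *Slc16a1* was called higher (background 1.46%), 0 members lower (background 2.34%), 20 were tested and not called and 10 were below the floor. The medians were 0.00 for all 31 members, 0.22 for the 21 members tested and -0.06 for all features tested. *Slc16a1* was at 31.6 to 44.0 CPM in Egr-high cells and 7.53 to 35.6 in other B cells, where library 6 was the highest, and the ratio was 2.66-fold (2.08–3.37). *Hk2* at 2.36-fold (1.78–3.11) and *Vegfa* at 1.86-fold (1.45–2.37), each with 5 of 6 libraries higher, and *Slc2a1* at 1.75-fold (1.49–2.05), with 6 of 6, were not called. Without library 4 *Hk2* was called higher as well, and without library 2, 5 or 6 *Pfkfb4* was called lower. With mitochondrial, ribosomal protein and immunoglobulin genes out of the totals *Pfkfb4* and *Pdk1* were called lower, and 26.5% of calls over all features were higher in place of 38.4%. With the median of all features subtracted that share was 49.5% and the counts of members were unchanged.

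**Figure D4:**
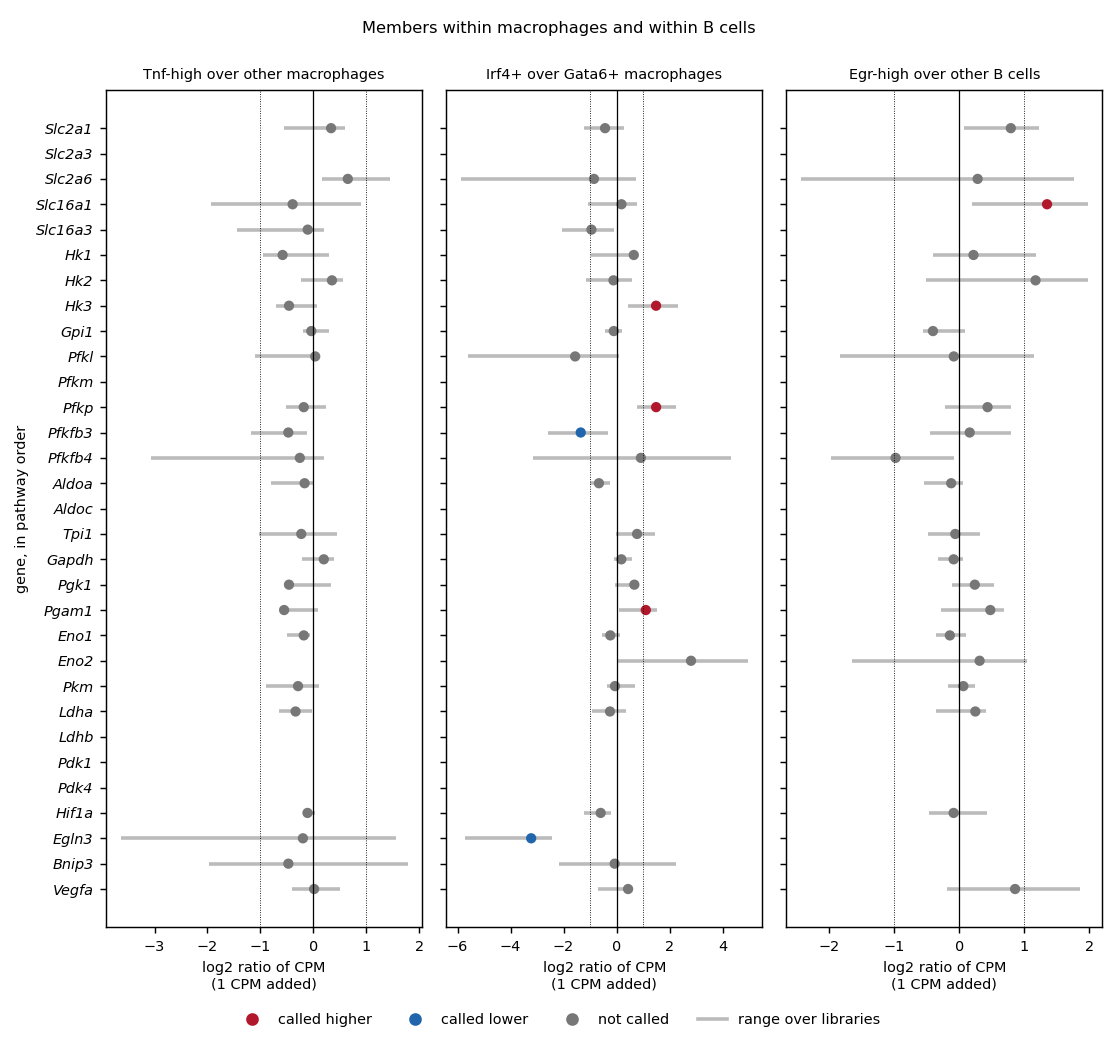
Log2 ratio of pooled CPM (1 CPM added) for each tested member in Tnf-high over other macrophages, Irf4+ over Gata6+ macrophages and Egr-high over other B cells, with dots for the pool, grey bars for the range over the 6 libraries and dotted lines at 2-fold. No dot passes the limit in the first panel, Hk3 and Pfkp lie at 1.49 in the second, and Slc16a1 at 1.35 is the called gene in the third.

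Levels were then read by library number, which stands for an unknown genotype and time. In macrophages 10 of 24 members above 5 CPM spanned at least 2-fold between their highest and lowest library with intervals apart, in Gata6+ cells 10 of 24 and in B cells 11 of 21. Over all features the same was met by 34.2% in macrophages, 20.6% in Gata6+ cells and 36.6% in B cells, against 41.7%, 41.7% and 52.4% of the members tested. Highly expressed genes have narrow intervals and meet this more easily, and nothing is read from the difference. Library 6 was the highest for 6 of the 10 in macrophages, 7 of the 10 in Gata6+ cells and 9 of the 11 in B cells. Without library 6 the counts were 6 in macrophages and 4 in B cells. Neither the highest library nor the counts without library 6 were taken over all features, so they are not read as a trait of the members.

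*Pgk1* in macrophages was at 174, 202, 229, 331, 421 and 446 CPM in libraries 1 to 6. Libraries 5 and 6 were the highest and library 1 the lowest, a span of 2.56-fold, and Gata6+ cells alone spanned 3.05-fold between the same libraries. *Vegfa* was at 262, 282, 506, 298, 389 and 680 CPM in macrophages, highest in libraries 6 and 3. Its Gata6+ values were 208, 234, 734, 348, 372 and 760 CPM, with the same 2 libraries on top. In B cells it was at 14.4 CPM in library 2 and 36.0 in library 6. That span of 2.50-fold was close to the 2.59-fold in macrophages, where library 6 was also the highest.

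*Hk1* spanned 3.04-fold in macrophages, from 28.3 CPM in library 1 to 86.1 in library 6, *Hk3* 2.48-fold, from 45.8 to 114 CPM, *Pgam1* 2.41-fold, from 124 to 299 CPM, and *Slc16a1* 3.74-fold, from 11.5 to 43.0 CPM, all between the same 2 libraries. Some members went the other way. *Pfkl* was highest in library 2 at 85.0 CPM and lowest in library 6 at 25.7, and *Slc2a6* was at 68.4 CPM in library 1 and 31.5 in library 6. *Egln3* was at 26.7 CPM in library 2 and 5.004 in library 4, and in Gata6+ cells at 52.1 and 5.86 CPM in the same libraries. *Gapdh*, *Ldha*, *Hif1a* and *Slc2a1* spanned less than 2-fold in macrophages.

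In B cells *Pfkp* was at 182 CPM in library 6 and 66.6 in library 4, *Pkm* at 435 and 199 CPM, *Slc2a1* at 84.5 and 30.0 CPM and *Slc16a1* at 36.8 and 9.79 CPM, whereas in macrophages *Slc2a1* had its lowest value, 102 CPM, in library 6. *Gpi1* had its lowest B cell value in library 6, at 102 CPM, against 204 in library 2. Library 6 also differed in which macrophages it held, with 51 Gata6+ and 109 Irf4+ cells among 517 macrophages, against 187 and 29 among 666 in library 1. Within Gata6+ cells alone, with 51 cells in library 6, *Hk1*, *Hk3*, *Pgk1*, *Pgam1*, *Slc16a1* and *Vegfa* also had their highest level in that library. *Hk3*, *Pfkp* and *Pgam1* were higher and *Pfkfb3* lower in Irf4+ cells, and the part of this mix of cells in the macrophage values was not tested.

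**Figure D5:**
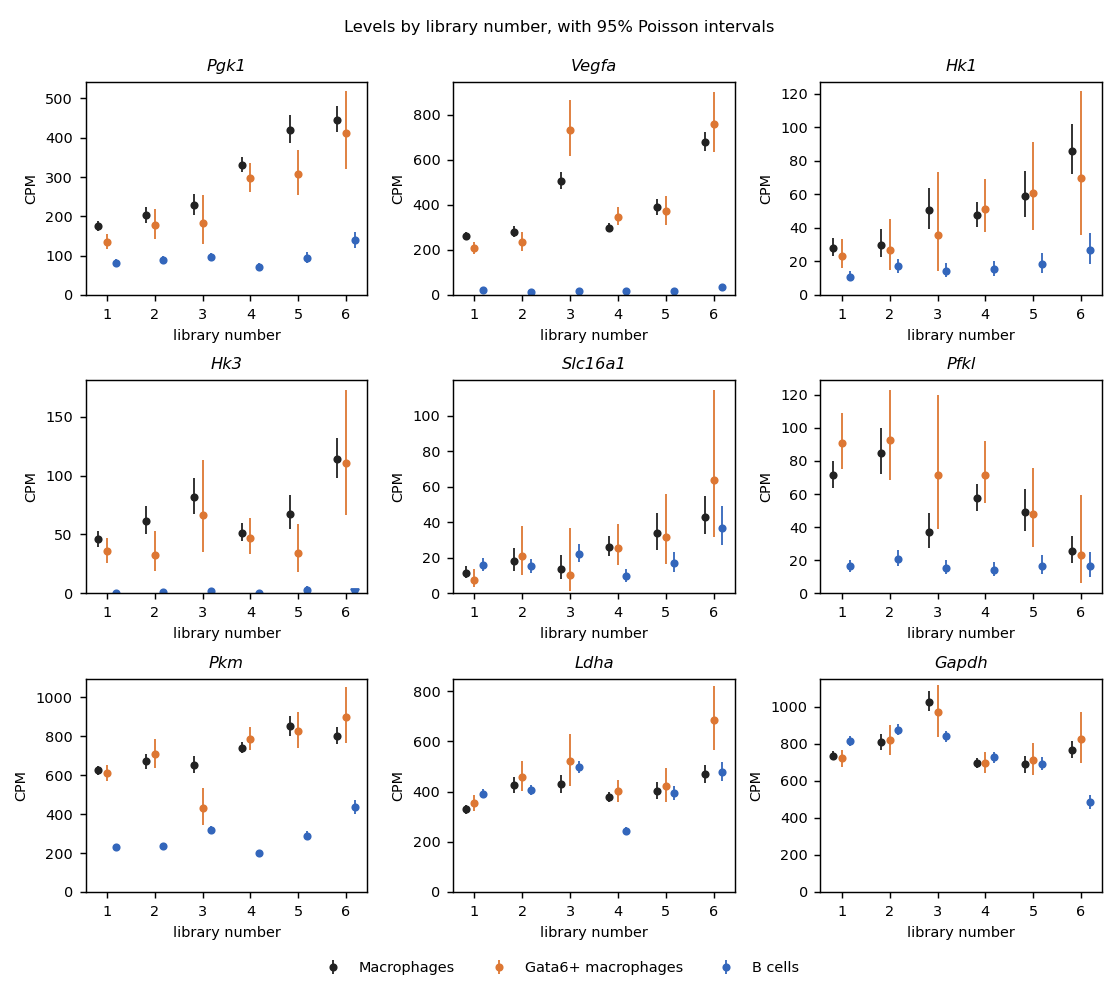
CPM (linear axes from 0) of 9 members by library number in macrophages, Gata6+ macrophages and B cells, with points for the value and bars for the exact Poisson 95% interval, and a triangle where no UMI was counted. Pgk1 in macrophages lies between 174 and 446 CPM and Vegfa between 262 and 680, while Gapdh spans less than 2-fold in macrophages.

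Other genes of the same pathways were read from lists fixed beside the 31 members. Of 7 pentose phosphate genes, which run parallel to glycolysis and yield NADPH, 3 were called higher in macrophages than in B cells and 1 lower. All 7 were tested, and the background was 18.1% higher and 20.9% lower. *Pgd* was at 503 against 31.5 CPM, 15.9-fold (14.7–17.4), *Taldo1* at 441 against 77.4, 5.70-fold (5.38–6.04), and *G6pdx*, the entry enzyme, at 77.3 against 16.3, 4.75-fold (4.17–5.41). *Pgls* was lower, at 49.2 against 141 CPM. Against T/NK cells the same 3 were called higher, with *Pgd* at 8.97-fold (7.37–11). Of the 14 further hypoxia targets tested against T/NK cells 5 were called higher and 1 lower. *Arg1* was at 5.63-fold (5.21–6.09) and *Mxi1* at 3.99-fold (2.64–6.34). The background against T/NK cells was 17.0% higher and 13.9% lower.

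Of 11 genes that bring pyruvate into mitochondria, or that form or control pyruvate dehydrogenase, 0 were called higher and 1, the kinase gene *Pdk3*, lower in macrophages than in B cells, at 6.02 against 21.4 CPM. Of 20 further genes of glycolysis and glycogen use, 1 was called higher (*Pygl*, glycogen phosphorylase, 17.3 against 1.298 CPM) and 1 lower (*Adpgk*, 10.7 against 23.4 CPM). Of 7 regulators of HIF, *Epas1*, which encodes HIF-2α, was called higher, with 188 UMIs against 6 and a ratio of 42.0-fold (19.0–116), and 0 were lower. The median log2 ratio of all genes in a list was 0.08 for the pentose phosphate list, -0.09 for the pyruvate and the further glycolysis lists, 0.13 for the HIF regulators and 0.09 for the further hypoxia targets, against -0.14 over all features tested. These sets are unlike, since the list medians include genes below the floor: of the 20 further glycolysis genes 6 were tested. Of the 11 pyruvate genes 9 were tested, and of the 7 HIF regulators 6. The background of calls in this comparison was 18.1% higher and 20.9% lower.

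Of 22 further hypoxia targets in the table, 6 were called higher and 5 lower in macrophages than in B cells, so these targets did not move as a block. *Arg1*, arginase 1, was at 2041 against 37.8 CPM, 54.1-fold (50.2–58.4). *Adm*, the vasodilator peptide, was lower at 1.74 against 31.2 CPM. The other 4 lower targets were *Mif*, *Tfrc*, *Ndrg1* and *Ddit4*, which complete the count and were picked out after their values were seen. In Irf4+ against Gata6+ cells, genes of these lists called lower included *Pygl*, *Epas1*, *Mxi1* and *Arg1*, with *Arg1* at 1018 against 2484 CPM, and *Tkt* and *Bhlhe40* were called higher.

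Some members have near copies in the genome. For each gene the protein-coding transcript with the largest shared part was taken. Of the windows of 98 bases (the read length) in its first 500 bases, 87.6% of *Gapdh*, 69.0% of *Pgam1*, 62.5% of *Pgk1* and of *Eno1*, 60.6% of *Pfkm*, 24.6% of *Hif1a*, 23.6% of *Bnip3*, 21.7% of *Gpi1*, 14.9% of *Hk1* and 11.9% of *Ldhb* also occurred in another annotated gene, some of them on the opposite strand. *Hk1* and *Hif1a* shared windows only with a gene on the opposite strand. Reads from windows shared on the same strand could be split or dropped, so the levels of the genes that hold such windows are uncertain relative to the other members. *Ldha* and *Pkm* shared 3.31% and 2.73% and the remaining 19 shared none.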

How the data were processed

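The authors prepared 5′ single-cell libraries and aligned the reads to hg38 and mm10 with STAR through Cell Ranger, and they deposited 1 table of whole UMI counts per mouse feature and barcode (mouse symbols were used here). The submitters' processing notes name Cell Ranger 2.2 and Seurat 3.0. The table joins 6 libraries by a barcode suffix that the labels do not tie to a sample, so it was treated as 1 sample with no test. Replicates were therefore not available, and intervals cover counting error only.

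Of 7760 barcodes, 7665 were kept (at least 500 genes, log genes over log UMIs at least 0.8, at most 10% mitochondrial UMIs). Macrophages had at least 2 UMIs of *Csf1r*, *Adgre1* and *Fcer1g*, at most 2 of *Cd79a* and *Cd79b* and at most 1 of *Cd3d*, *Cd3e* and *Nkg7*. B cells had at least 4 of *Cd79a* and *Cd79b*, T/NK cells at least 2 of *Cd3d*, *Cd3e* and *Nkg7*, and 153 barcodes in both lymphocyte gates were left out, while 1277 kept barcodes fell in no gate. Irf4+ cells had *Irf4* without *Gata6*, Gata6+ cells the reverse, both with fewer than 2 *Tnf* UMIs. Cells were not clustered. Scrublet marked 47 barcodes (0.606%), which were kept except in 1 alternative.

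Counts were summed per gate and library and scaled to CPM. Calls are defined beside the first comparison. A library needed at least 10 cells in both groups. Promoter sequences came from RefSeq (GRCm38.p6). The routine was tested on simulated data. Alternatives changed the cell filter, floor, pseudocount, scaling, weighting, gates, depth, doublets and libraries. All 31 members are accounted for, and of the other lists up to 3 called genes per list and comparison, those with the largest absolute log2 ratio, were to be named. Some listed genes are counted but not reported here by name. Members, lists and rules were chosen with earlier results of these data known. Python 3.11.15, numpy 2.4.6, scipy 1.17.1, pandas 2.3.3, scanpy 1.11.5 and matplotlib 3.10.9 were used.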

Additional observations from a re-analysis of the deposited data

How the results depend on the processing

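No paired analysis of genotypes or times was possible because the library numbers are not tied to them. Gates were compared by direction within each library, without a paired test. Of 41 called gene ratios, 20 were called in every alternative run and 0 reversed. Outside the alternatives that left out a library, 212 of 234 list medians and counts stayed near their first value. For a median, near meant within the standard deviation of the library medians, so its sign could change. In B cells over T/NK cells the members' median was 0.137 at first and ranged from -0.0837 to 0.268. With mitochondrial, ribosomal protein and immunoglobulin genes out of the totals, the members' median was 0.50 in macrophages over B cells (4 lower) and 0.51 over T/NK cells (9 higher), and 2 were lower in Egr-high B cells. With the median of all features subtracted, the members' median was -0.0334 in Tnf-high macrophages and 0.0625 in Egr-high B cells. A floor of 20 CPM left 0 members lower in macrophages over T/NK cells, 1 higher and 0 lower in B cells over T/NK cells, and 1 lower in Irf4+ over Gata6+ cells, since fewer features were tested. A floor of 1 CPM gave 1 lower in macrophages over B cells. With 0.1 CPM added 1 member was lower in Egr-high B cells, and with cells weighted equally 2 were. Stricter gates gave 0 members higher in B cells over T/NK cells and a median of -0.30 in Tnf-high macrophages. In cells of 3000 to 8000 UMIs the median over T/NK cells was 1.33, with 1 lower in macrophages, 1 lower in B cells over T/NK cells and 1 lower in Egr-high B cells. Without marked doublets the Egr-high median was 0.0771. With lymphocytes carrying a *Csf1r* or *Adgre1* UMI left out, chosen after seeing the data, 2 members were higher in Egr-high B cells. Leaving out each library in turn gave Egr-high medians of -0.0201 to 0.0812 with 1 to 2 higher and 0 to 1 lower, 2 to 4 higher and 1 to 2 lower in B cells over T/NK cells, and 6 to 10 members in macrophages and 4 to 12 in B cells that spanned 2-fold between libraries. Apart from the floors and the libraries left out, the cause was not tested. Depth is a limit in the T/NK and Irf4+ gates, where *Bnip3*, *Ldhb* and *Egln3* rest on 2 to 20 UMIs.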
